A study of Mus musculus with 5 samples.

Results

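Mpo, Elane, Prtn3, Ctsg, Prss57, Ms4a3, Nkg7, Cst7, Srgn and Serpinb1a are the 10 genes described here, chosen by name as genes of the azurophil granule and of the granule programme of early myeloid progenitors. Each symbol was found once among the 31053 genes of the deposited tables, in all 5 single-cell RNA-seq libraries, so 10 of 10 members were measured. Azurophil granules are the first granules a developing neutrophil makes, and they are filled at the promyelocyte stage, just after the granulocyte-monocyte progenitor (GMP). Their enzymes are made for a short time, sorted into the granule while still inactive, and kept for the rest of the cell's life, so that a mature neutrophil carries the proteins but hardly the messages. Monocyte precursors make a smaller set of the same enzymes.

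The samples were bone marrow (BM) cells of tumour-free BALB/c mice, 4 to 8 weeks of age. Mice were left untreated (naive) or were given 1 intraperitoneal dose of cyclophosphamide (CTX), a DNA-alkylating chemotherapy drug, at 150 mg/kg. Whole BM, freed of dead cells, was taken from naive mice, at day 2 (D2 CTX) and at day 7 (D7 CTX), with 3 mice pooled in each library. The other 2 libraries held monocytes sorted as CD11b+Ly6Chi, with a purity above 98%, from naive and from CTX-treated mice, day 7 by the study's methods and with no day on the label. Each group was 1 library without replicates, and the groups were therefore not tested against each other. The 95% intervals given here cover counting error in unique molecular identifiers (UMIs) only, not the spread between mice.

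The libraries held 2223 to 8605 cell barcodes, of which 1891 to 8290 were kept, and 22694817 to 68459527 UMIs. Median UMIs per kept cell were 3953.5, 3033.5 and 7189.5 in naive, D2 and D7 BM and 10299 and 9694 in the sorted naive and CTX monocytes. Pairs of libraries shared 2 to 16 barcodes. The 10 members took 0.367%, 0.289% and 0.528% of all UMIs of the naive, D2 and D7 BM and 0.219% and 0.341% of those of the sorted naive and CTX monocytes. Levels are given as CPM, a gene's UMIs per 1000000 UMIs of all cells of a class in a library. UMIs come from transcript 3′ ends and were not scaled by length, so a level is compared between classes or libraries for the same gene.

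Cells were grouped into 18 named classes from clusters built without the 10 members, so that no member drew a class. The class named GMP rested on a single cluster led by Dmkn, Mt1, Mgl2, Gstm1 and Rgcc. In naive, D2 and D7 BM, it held Kit, the stem cell factor receptor, at 40.1, 43.1 and 26.6 CPM, and Myb at 251, 328 and 212 CPM. It also held Camp, a later neutrophil granule gene, at 9918, 4514 and 9588 CPM, and Fcnb at 731, 186 and 909 CPM. Cd34, a surface marker of progenitors, was at 32, 155 and 8.17 CPM, so most of its cells were GMP-like cells that already held neutrophil granule genes, with a different makeup at D2. It had 164, 65 and 478 cells in naive, D2 and D7 BM, which were 2.31%, 1.06% and 5.77% of kept cells.

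In the GRCm38 genome, Prss57 (chromosome 10, 79781474 to 79790961, minus strand), Prtn3 (chromosome 10, 79874476 to 79883174, plus strand) and Elane (chromosome 10, 79886247 to 79888215, plus strand) sit in a stretch of 106742 bases. Prtn3 and Elane are 3072 bases apart and Prss57 and Prtn3 83514 bases apart. Mpo lies on chromosome 11 (87793581 to 87804413), Ctsg on 14 (56099881 to 56102574), Ms4a3 on 19 (11629496 to 11640851), Nkg7 on 7 (43437073 to 43438249), Cst7 on 2 (150570415 to 150578944), Srgn on 10 (62493833 to 62527451) and Serpinb1a on 13 (32842092 to 32851185). The genes next to the members were not at the members' levels in naive GMPs. Cfd, a complement protease just past Elane, had 0 UMIs there, Med16 was at 15.8 CPM, and Plppr3, whose annotation overlaps Prtn3, was at 20.1 CPM. Next to Ctsg, the mast cell protease Mcpt4 had 0 UMIs and Mcpt8 was at 5.73 CPM, and Lpo, the peroxidase gene beside Mpo, had 0 UMIs.

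The 250 bases before the RefSeq starts of the 4 best known granule enzymes are shown because these genes were high in the same class. Capitals mark GGAAGT, a core of sites bound by ETS factors such as PU.1, searched for on both strands after the sequences had been read. They are written 5′ to 3′ along the gene, for Mpo chr11:87793534-87793783 (plus), Elane chr10:79886062-79886311 (plus), Prtn3 chr10:79879417-79879666 (plus) and Ctsg chr14:56102575-56102824 (minus), build GRCm38.p6.
Mpo: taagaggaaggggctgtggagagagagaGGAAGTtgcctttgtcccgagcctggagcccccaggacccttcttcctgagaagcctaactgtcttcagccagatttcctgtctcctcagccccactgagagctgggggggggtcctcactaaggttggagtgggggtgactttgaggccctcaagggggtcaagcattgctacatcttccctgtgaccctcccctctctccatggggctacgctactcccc
Elane: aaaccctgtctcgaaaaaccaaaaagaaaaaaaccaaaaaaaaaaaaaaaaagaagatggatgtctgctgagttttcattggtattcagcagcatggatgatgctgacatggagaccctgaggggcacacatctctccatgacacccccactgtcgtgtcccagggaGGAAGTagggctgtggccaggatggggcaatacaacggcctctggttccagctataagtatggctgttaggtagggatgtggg
Prtn3: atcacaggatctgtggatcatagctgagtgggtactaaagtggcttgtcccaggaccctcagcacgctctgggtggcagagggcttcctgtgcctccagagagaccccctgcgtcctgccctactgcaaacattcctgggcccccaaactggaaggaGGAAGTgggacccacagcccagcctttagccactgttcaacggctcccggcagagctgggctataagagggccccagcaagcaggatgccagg
Ctsg: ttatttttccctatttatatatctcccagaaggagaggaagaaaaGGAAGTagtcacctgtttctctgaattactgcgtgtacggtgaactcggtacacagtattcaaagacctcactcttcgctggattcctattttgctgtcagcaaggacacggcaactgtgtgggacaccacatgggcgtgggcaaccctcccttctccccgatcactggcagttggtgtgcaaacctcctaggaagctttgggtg
GGAAGT began 222, 83, 93 and 205 bases before these starts. It stood on either strand in 7 of the 8 members with a RefSeq window and in 6485 of 32851 windows of the same length (19.7%). The window of Nkg7 had none. Elane and Prtn3 also shared AACGG, the core of a MYB site, 50 and 55 bases before the start, a motif found in 14.5% of all windows. TGTGGT, a core of RUNX sites, stood in 4 members (Ctsg, Nkg7, Cst7 and Srgn) and in 14% of windows. A match is a description of the letters and not a bound site.

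Mpo encodes myeloperoxidase, the enzyme that makes hypochlorous acid, and was highest in GMPs. It was at 5130 CPM (95% interval 5033–5228), 4432 CPM (4354–4511) and 4932 CPM (4872–4992) in GMPs of naive, D2 and D7 BM. The next classes in naive BM were monocyte-dendritic cell progenitors (MDPs) at 981 CPM (938–1024), the class of haematopoietic stem and erythroid progenitors (HSPCs) at 602 CPM (567–638), and stromal cells at 549 CPM (484–619). The intervals of the latter classes overlapped. The HSPC class was led by Pf4, Prss34, Mcpt8 and Cpa3 and so also held cells with megakaryocyte and basophil or mast cell genes.

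Elane, neutrophil elastase, and Prtn3, proteinase 3, were the members most concentrated in GMPs. Elane was at 15612 CPM in naive GMPs, 1231 CPM in MDPs, 613 CPM in stromal cells and 453 CPM in proNeu, the first cycling neutrophil precursors. Prtn3 was at 13450, 2012, 559 and 454 CPM in the same classes. GMPs held 78.8%, 82.5% and 83.7% of all Elane UMIs in naive, D2 and D7 BM. For Prtn3 the shares were 72%, 64.6% and 76%.

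Ctsg, cathepsin G, was at 2652 CPM in naive GMPs and had a second high class, basophils, at 1063 CPM. HSPCs (539 CPM) and MDPs (532 CPM) had overlapping Ctsg levels. Prss57, a serine protease of the same granule, was at 373 CPM in GMPs, 44.9 CPM in proNeu and 31.2 CPM in stromal cells. Ms4a3, a tetraspan membrane protein of granulocyte-monocyte precursors, was at 1611 CPM in GMPs, 215 CPM in proNeu and 116 CPM in basophils. Both had their second level in proNeu, unlike Mpo, Elane and Prtn3, whose second level was in MDPs.

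Nkg7, a membrane protein of cytotoxic granules, was higher in NK cells (1887 CPM) than in GMPs (1027 CPM), and T cells followed with 462 CPM. Its level in NK cells was 1887, 1907 and 1606 CPM in naive, D2 and D7 BM. NK cells held 26.2%, 23.3% and 12.5% of all its UMIs, and GMPs 43.9%, 21.5% and 64%. Cst7, cystatin F, which inhibits the activation of granule proteases, was at 246 CPM in naive GMPs and 194 CPM in basophils, with overlapping intervals, and at 57.3 CPM in NK cells.

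Srgn, serglycin, the proteoglycan core that binds enzymes inside many kinds of granules, was the member with the widest spread. In naive BM it was at 3917 CPM in GMPs, 3503 CPM in basophils and 2716 CPM in mature neutrophils, and GMPs held 29.3% of its UMIs. Serpinb1a, a cytosolic inhibitor of elastase, cathepsin G and proteinase 3, was spread over the early neutrophil classes. In naive BM it was at 731 CPM in proNeu, 705 CPM in preNeu, the stage after it, and 702 CPM in GMPs, which did not differ beyond counting error. The levels of these classes were 1111, 751 and 398 CPM at D2 and 836, 846 and 897 CPM at D7. GMPs held 12.4% of its UMIs in naive BM against 37.2% in proNeu.

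**Figure D1:**
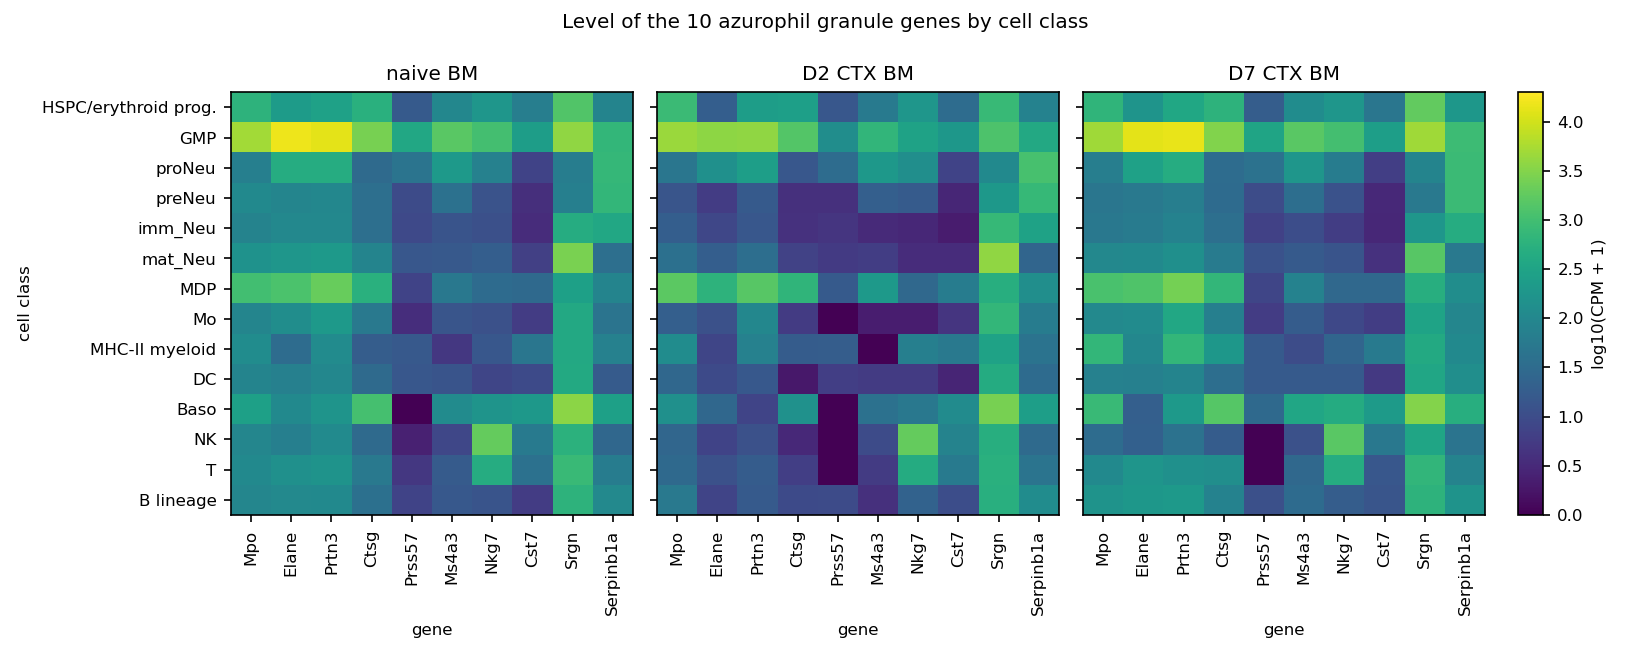
Level of each member, as log10(CPM + 1), in 14 cell classes (rows) of naive, D2 CTX and D7 CTX BM (panels), brighter for higher. Mpo, Elane, Prtn3, Ctsg, Prss57 and Ms4a3 are brightest in GMPs in each library, Nkg7 is also bright in NK cells and Srgn is bright in basophils and mature neutrophils.

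Along the neutrophil classes of naive BM, the members split by how far they reached. From GMPs to proNeu, Mpo went from 5130 to 72.1 CPM, which was 1.41% of the GMP level, and Ctsg to 1.11%. Both were below their levels in B lineage cells, 92.8 and 37.1 CPM. Elane was at 2.9% and Prtn3 at 3.38% in proNeu, and at 0.579% and 0.731% in preNeu. Prss57 (12%), Ms4a3 (13.4%) and Nkg7 (7.49%) kept more of their level in proNeu, and 2.3%, 2.44% and 1.11% in preNeu. Camp, a gene of the specific granules that are filled later, went the other way, from 9918 CPM in GMPs to 64683 CPM in proNeu.

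Serpinb1a and Srgn had courses of their own. Serpinb1a stayed at 104% and 100% of its GMP level in proNeu and preNeu, and was at 53.3% in immature and 5.22% in mature neutrophils. Srgn was at 1.68% in proNeu, 1.81% in preNeu, 11.5% in immature and 69.3% in mature neutrophils. Only 1 of 10 members in immature neutrophils, and 6 of 10 in mature ones, had a level above that of B lineage cells of the same library. No share of all genes stands beside these counts. Mature neutrophils had a median of 1818 UMIs per cell, against 2818 in B lineage cells, and 0.856 against 0.877 Mpo UMIs per Elane UMI. How far RNA from outside the cell made up their levels was not tested.

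**Figure D2:**
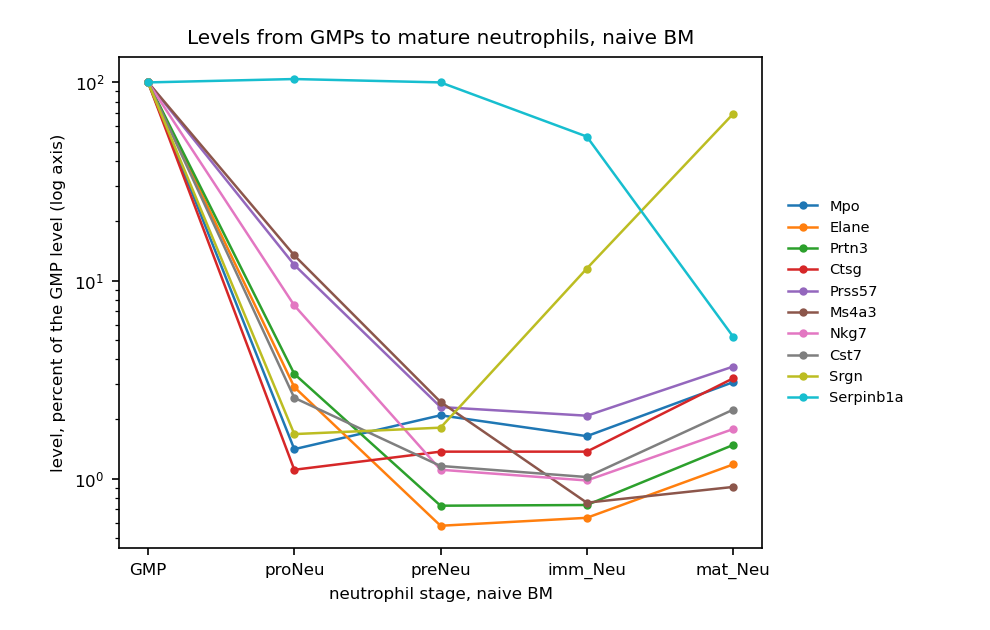
Level of each member as a percent of its GMP level (log axis) in GMPs, proNeu, preNeu, immature and mature neutrophils of naive BM. Mpo and Ctsg are near 1% by proNeu, Ms4a3 is at 13.4% there, Serpinb1a stays near 100% until preNeu and Srgn returns to 69.3% in mature neutrophils.

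B lineage cells are not known to make Mpo, Elane, Prtn3 or Ctsg, and their UMIs of these genes were taken as the background of free RNA in a library. In naive BM the background was 92.8 CPM for Mpo, 106 CPM for Elane, 111 CPM for Prtn3 and 37.1 CPM for Ctsg, which were 1.81%, 0.677%, 0.823% and 1.4% of the GMP levels. It was 591 CPM for Srgn and 105 CPM for Serpinb1a, 15.1% and 14.9% of the GMP level. For Srgn this was no background, since at 1000 UMIs per cell it was found in 45.7% of naive B lineage cells and 3.68% of proNeu, so a level above B lineage cells only compares it with another cell type that holds it. Serpinb1a was found in 10.6% of naive and 10.8% of D2 B lineage cells, while Mpo went from 10.7% to 2.92%. The B lineage level of Serpinb1a may therefore also not be background. At D2 the background was lower, with Mpo at 54.5, Elane at 6.71, Prtn3 at 15.4 and Ctsg at 8.38 CPM. At D7 it was higher, at 163, 191, 209 and 78.1 CPM for the same genes.

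The background was uneven among B lineage cells in each library. At D2, 51 cells of a pro-B cluster led by Myl4, Igll1 and Vpreb1 held Mpo at 189 CPM, in 20 cells, and Nkg7 at 106 CPM, in 23 cells, with Elane at 2.85 CPM and no Ms4a3 UMI. The other B lineage clusters at D2 had Mpo at 2.17 to 33.2 CPM. Without these cells, a choice made after seeing the data, the D2 background was 25.6 CPM for Mpo and 3.05 CPM for Nkg7. At D7, 1 cell held 43.2% of the Elane and 29.6% of the Mpo UMIs of the B lineage. In naive BM the pro-B cluster was lower, with Mpo at 64.7 and Elane at 84.1 CPM. The other naive B lineage clusters had Mpo at 105 to 159 CPM and Elane at 135 to 182 CPM.

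Against this background, GMPs were above B lineage cells for 10 of 10 members in each of the 3 libraries. MDPs were above it for 7 of 10 members in each library, and HSPCs for 9, 9 and 7 members in naive, D2 and D7 BM. proNeu were above it for 6, 7 and 6 members, and basophils for 8, 8 and 7. Monocytes were above it for 3 members in naive BM (Elane, Prtn3 and Ctsg), 2 at D2 (Prtn3 and Srgn) and 1 at D7 (Prtn3). T cells were above it for 5, 2 and 1 members and NK cells for 2 in each library. In naive T cells these were Nkg7, Cst7 and Srgn, and also Elane at 141 CPM and Prtn3 at 161 CPM. Against B lineage cells without the pro-B cluster, at 145 and 155 CPM, neither was above. Against these same cells, naive monocytes were above for Prtn3 but not for Elane or Ctsg. Dendritic, plasma and erythroid cells were above the whole B lineage for none, with Mpo at 25.9 CPM in naive erythroid cells and 15.3 CPM in plasma cells. The stromal class, whose own markers are genes of connective tissue, was above it for 8, 5 and 7 members, with Mpo at 549, 451 and 1527 CPM. The source of those UMIs was not tested. None of these counts has a share of all genes above B lineage cells beside it. They therefore only set each member against B lineage cells.

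At D2, the CPM of Elane in GMPs was lower by a factor of 4.26 while that of Mpo was nearly level. The size for Elane depended on which cells were grouped as GMPs, with factors of 2.21, 1.85 and 1.83 when the members were among the clustering genes and at resolutions 0.4 and 1.2, and of 1.14 without integration of the libraries. Elane was at 15612 CPM in naive GMPs, 3665 CPM at D2 and 13502 CPM at D7. The log2 ratio of D2 over naive was −2.09 (95% interval −2.12 to −2.06) for Elane and −0.21 (−0.25 to −0.17) for Mpo. Prtn3 was at 13450, 3889 and 14409 CPM in naive, D2 and D7 GMPs, with a D2 ratio of −1.79. D2 was low for both proteases and D7 was near naive.

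Of the other members, Nkg7 (1027, 300 and 1018 CPM in naive, D2 and D7 GMPs), Srgn (3917, 1274 and 4826 CPM) and Prss57 (373, 125 and 323 CPM) were also lowest at D2, with D2 ratios of −1.78, −1.62 and −1.58. Ms4a3 was at 1611, 684 and 1592 CPM, a D2 ratio of −1.24. Ctsg (2652, 1385 and 3051 CPM) and Serpinb1a (702, 398 and 897 CPM) had D2 ratios of −0.94 and −0.82. Cst7 was closest to Mpo, at 246, 186 and 253 CPM, with a D2 ratio of −0.41.

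In all, 6 of the 10 members were at least 1 log2 unit lower at D2, a size passed by 2.61% of the 2917 genes with enough UMIs in GMPs. No member was as much higher, against 12.2% of these genes. The members' median ratio was −1.40 and that of all 2917 genes 0.31. With 1 library per group, these are sizes and not calls of a test. Only 4 of the 2917 genes had a lower ratio than Elane, 12 than Prtn3 and 13 than Nkg7. Mpo, though nearly level in CPM, was lower than most genes, with 2410 above it and 506 below.

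The D2 class was of a different makeup, and this moved with the result. When the same cells were clustered more finely, 16 of 164 naive, 41 of 65 D2 and 27 of 478 D7 cells of the class fell outside the finer GMP class and into the HSPC class. This split was looked at after the data had been seen. In naive BM these cells held Cd34 at 142 CPM against 7.58 CPM in the rest, Irf8 at 364 against 3.5 CPM, and Fcnb at 0 UMIs against 893 CPM. They are called Cd34-high GMPs here and the rest Cd34-low GMPs. The median D2 cell of the whole class held 41730 UMIs, against 11917.5 in naive and 10362.5 in D7 BM.

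The members differed between these kinds of GMPs already in naive BM. Elane was 4.09-fold higher in Cd34-low GMPs (18089 against 4426 CPM), Serpinb1a 3.65-fold, Nkg7 3.2-fold and Prtn3 3.17-fold. Mpo was 1.18-fold (5279 against 4458 CPM), Cst7 1.2-fold and Ctsg 1.37-fold higher. Mpo, Ctsg and Cst7 were thus the members least divided by the split. At D7, Mpo was higher in the Cd34-high cells (7088 against 4733 CPM).

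Within each kind, the D2 ratios were smaller than in the whole class for most members. In Cd34-low GMPs, of which there were 148, 24 and 451, Elane was at 18089, 9880 and 14150 CPM in naive, D2 and D7 BM and Prtn3 at 15356, 7654 and 15102 CPM. The D2 ratios were −0.87 and −1.0. Mpo was at 5279, 5131 and 4733 CPM, with a D2 ratio of −0.04. Prss57 (−0.37), Ms4a3 (−0.23), Nkg7 (−0.57) and Srgn (−0.71) were less than 1 log2 unit lower, and Serpinb1a was higher (0.45). The median Cd34-low cell held 11602.5, 25360 and 10167 UMIs in naive, D2 and D7 BM. These ratios therefore compare shares of a cell's UMIs and not UMIs per cell. Elane had 31006 UMIs in the 148 naive and 6724 in the 24 D2 cells.

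In Cd34-high GMPs, Elane was at 4426, 1654 and 6466 CPM in naive, D2 and D7 BM, with a D2 ratio of −1.42, and Prss57 at 192, 62.3 and 99.1 CPM, with a D2 ratio of −1.63. Nkg7 (−1.38), Srgn (−1.13) and Ms4a3 (−1.01) were also lower there at D2, and Mpo was again nearly level (−0.08). The summed CPM of Mpo, Elane, Prtn3, Ctsg and Prss57 had a D2 ratio of −1.46 in the whole class, −0.75 in Cd34-low and −0.71 in Cd34-high GMPs. Counted over Cd34-low cells alone, which were the GMP class of naive and D2 BM at the finer resolution of 1.2, 1 of 10 members (Prtn3) was at least 1 log2 unit lower at D2, against 0.813% of 1230 genes. In CPM, Mpo had the D2 ratio nearest 0 in the whole class and in both kinds, and Elane was lower in each. The count of 6 rested on the cells grouped as GMPs. It was 2 when the members were left among the clustering genes, against 0.752% of 1595 genes, and 1 at the coarser resolution of 0.4, against 0.903% of 1218 genes. Without integration it was 0, against 1.55% of 1618 genes, and 6 of 10 members were not below naive, namely Mpo (0.22), Prss57 (0.07), Ms4a3 (0.23), Nkg7 (0.08), Cst7 (0.35) and Serpinb1a (0.61).

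**Figure D3:**
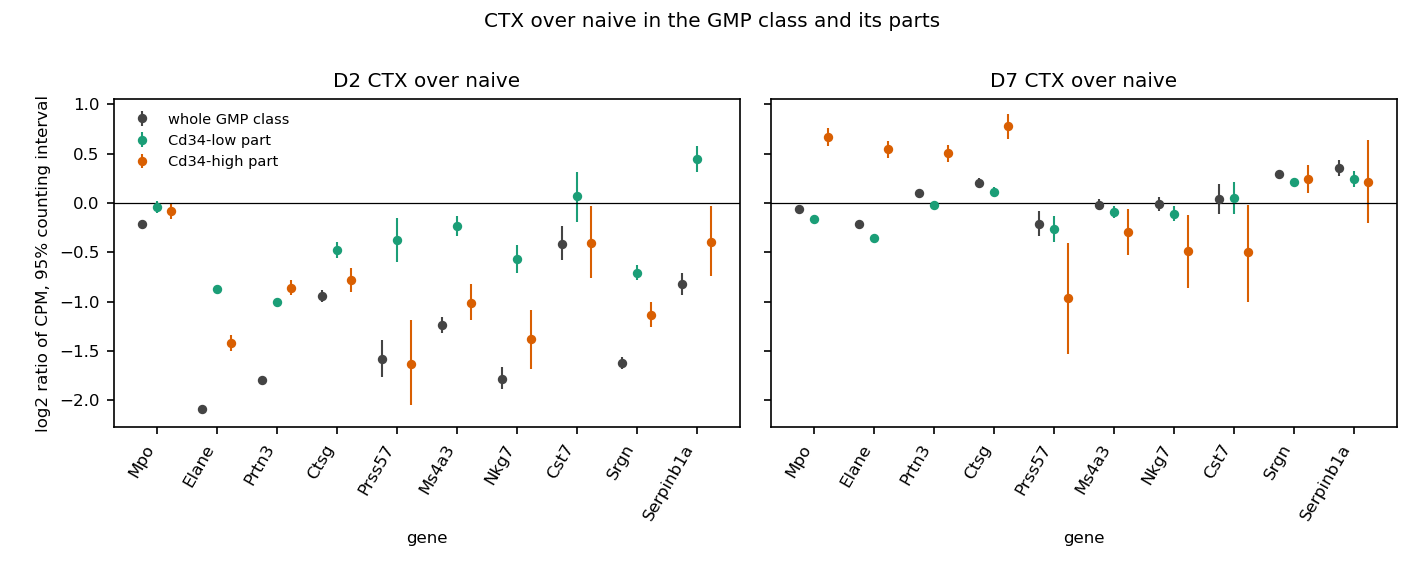
Log2 ratio of CTX over naive for each member in GMPs at D2 and D7 (panels), for the whole class and its Cd34-low and Cd34-high cells, with bars for 95% counting intervals. At D2 Elane is at −2.09 in the whole class, −0.87 in Cd34-low and −1.42 in Cd34-high cells, and Mpo is near 0 in all 3, while at D7 the whole-class points lie between −0.21 and 0.36.

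At D7 the members in GMPs were near the naive levels. The D7 ratios were −0.06 for Mpo, −0.21 for Elane, 0.10 for Prtn3, 0.20 for Ctsg, −0.21 for Prss57, −0.02 for Ms4a3, −0.01 for Nkg7 and 0.04 for Cst7. Srgn (0.30, interval 0.27 to 0.34) and Serpinb1a (0.36, 0.27 to 0.44) were the highest. Of the 10 members 0 were at least 1 log2 unit lower and 0 as much higher, against 1.19% and 1.13% of 3284 genes, and their median was 0.01 against −0.17. The members took a median of 4.98%, 1.64% and 4.97% of the UMIs of a GMP in naive, D2 and D7 BM, and up to 13.9% in a naive cell.

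Mpo and Elane were also set against each other within each class. In naive GMPs there were 0.329 Mpo UMIs per Elane UMI, at D2 1.21 and at D7 0.365. The ratio was higher at D2 in MDPs (0.797, 2.82 and 0.884), in HSPCs (2.69, 46.8 and 3.94) and in proNeu (0.159, 0.332 and 0.231). In Cd34-low GMPs it was 0.292, 0.519 and 0.334, and in Cd34-high GMPs 1.01, 2.54 and 1.1. Over all kept cells the ratio was 0.416, 1.65 and 0.418, and in B lineage cells 0.877, 8.12 and 0.854. Without the pro-B cluster the B lineage ratio was 0.989, 3.41 and 1.98. D2 had the highest Mpo to Elane ratio in each of these classes.

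**Figure D4:**
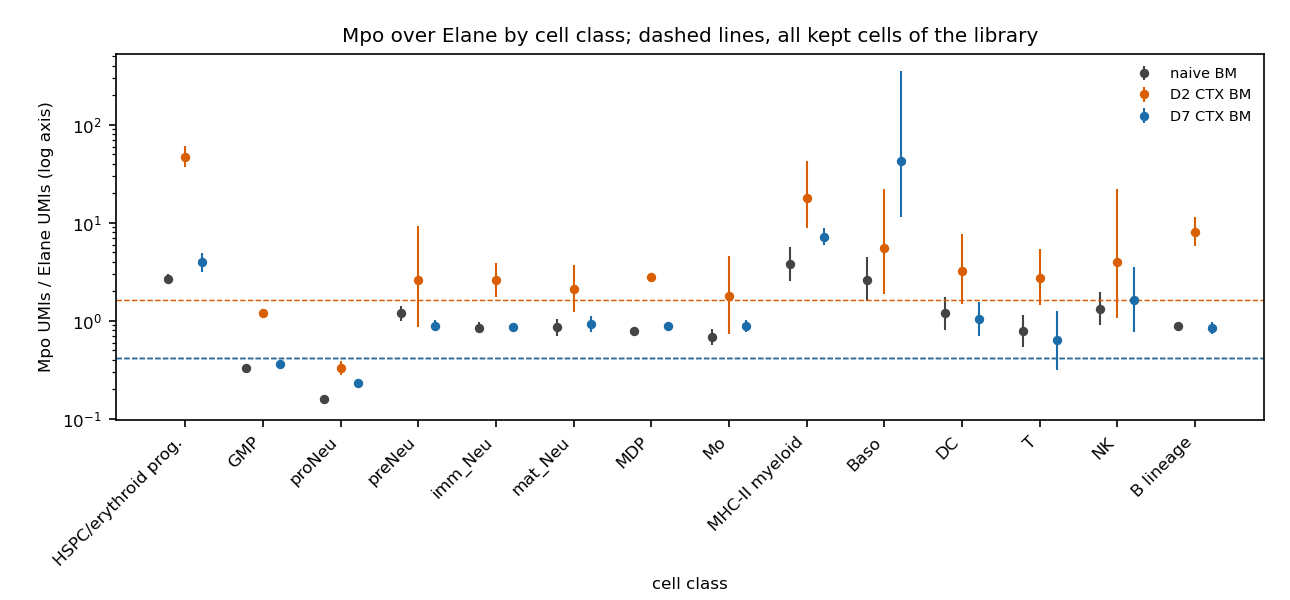
Mpo UMIs per Elane UMI (log axis) by cell class in naive, D2 CTX and D7 CTX BM, with dashed lines for all kept cells. The D2 points lie above the naive and D7 points in HSPCs (46.8 against 2.69 and 3.94), GMPs (1.21 against 0.329 and 0.365) and MDPs (2.82 against 0.797 and 0.884).

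Cell by cell, most of the members varied together. In 155 naive GMPs thinned to 4000 UMIs, Spearman's rho was 0.73 between Elane and Prtn3 and 0.72 between Mpo and Ctsg, against 0.37 between Mpo and Elane. In 65 D2 GMPs these were 0.87, 0.58 and 0.40, and in 469 D7 GMPs 0.65, 0.70 and 0.41. Srgn was also close to Elane, with rho of 0.72, 0.76 and 0.70 in naive, D2 and D7 GMPs, and Ms4a3 followed Elane with 0.53, 0.77 and 0.52. Mpo ran against Camp in naive GMPs (−0.49), and Elane against Irf8 at D2 (−0.60). Serpinb1a stood apart, with rho of 0.52 with Fcnb and −0.13 with Mpo in naive GMPs. These are descriptions over cells that share a library.

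In the HSPC class, which was led by Pf4, Prss34, Mcpt8 and Cpa3, Elane was lower and Mpo higher at D2. MDPs had the same directions (−1.06 and 0.76), which depended on the clustering. Elane was at 224 CPM in naive, 18 CPM in D2 and 168 CPM in D7 HSPCs, a D2 ratio of −3.64 (95% interval −4.03 to −3.27), while Mpo was at 602, 842 and 661 CPM, a D2 ratio of 0.48. Ctsg (539, 262 and 596 CPM) and Cst7 (67.2, 32.3 and 47 CPM) were lower at D2, with ratios of −1.04 and −1.06. In all, 3 of 9 members with enough UMIs were at least 1 log2 unit lower, against 0.823% of 4132 genes. The background was also lower for Elane at D2 (106 to 6.71 CPM), and Mcpt8, a basophil gene, was at 1676, 478 and 1030 CPM in this class. The part of either in these values was not tested. The HSPC ratios also rest on which cells were grouped as HSPCs. In the finer clustering, 16 naive and 41 D2 cells of the GMP class fell into the HSPC class. Those cells held 1680 and 3478 Elane UMIs, against 410 and 69 in the naive and D2 HSPCs used here. How far the HSPC ratios change with those cells added, or in another clustering, was not tested.

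MDPs give rise to monocytes and dendritic cells. The class named so was led by Itga1, F13a1, Fn1 and Klf4 and held Irf8 at 572, 459 and 646 CPM, Csf1r at 111, 103 and 119 CPM and the monocyte gene Ly6c2 at 1362, 656 and 1181 CPM in naive, D2 and D7 BM. Flt3 (3.88, 0.873 and 2.55 CPM) and Kit (4.85, 2.18 and 1.98 CPM), which mark early MDPs, were nearly absent. In this class the enzymes did not move together at D2. Elane was at 1231, 591 and 1322 CPM in naive, D2 and D7 MDPs, a D2 ratio of −1.06 (−1.16 to −0.96). Mpo was at 981, 1664 and 1169 CPM, a D2 ratio of 0.76. Ms4a3 was at 51.8, 215 and 79.2 CPM, a D2 ratio of 2.05 (1.75 to 2.37), and Cst7 at 28.1, 63.3 and 27.7 CPM, a ratio of 1.17 (0.72 to 1.64). The remaining D2 ratios were −0.41 for Prtn3, 0.29 for Ctsg, 0.83 for Srgn and 0.62 for Serpinb1a.

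In MDPs at D2, 2 of 8 members with enough UMIs were at least 1 log2 unit higher, against 3.03% of 3197 genes, and 1 was as much lower, against 1.94%. Prss57 and Nkg7 had too few UMIs and were at 6.3, 15.3 and 7.07 CPM and at 30.5, 27.9 and 27.2 CPM. The D2 values in MDPs depended on the clustering. Without integration Cst7 was at −0.04 and Ms4a3 at 0.05, 0 of 6 members were at least 1 log2 unit higher, against 3.28% of 3873 genes, and 4 were as much lower, against 1.16%, namely Mpo (−2.45), Elane (−2.75), Prtn3 (−1.76) and Ctsg (−1.97). With the members among the clustering genes 4 of 9 were higher, against 4.09% of 5429 genes, and 0 lower. At resolution 0.4 no cluster was named MDP. At D7, 0 of 7 were at least 1 log2 unit higher, against 0.894% of genes, with Srgn at 0.79 and Ms4a3 at 0.61. MDP Mpo was 19.1%, 37.5% and 23.7% of the GMP level in naive, D2 and D7 BM.

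In proNeu at D2, 2 of 9 members were at least 1 log2 unit lower, against 1.34% of 3894 genes. They were Elane (453, 143 and 291 CPM in naive, D2 and D7 proNeu, a D2 ratio of −1.66) and Ctsg (29.5, 13.8 and 32.6 CPM, −1.09), and Ctsg was below the naive background of 37.1 CPM. Nkg7 (76.9, 134 and 63 CPM), Srgn (65.8, 110 and 85.5 CPM) and Serpinb1a (731, 1111 and 836 CPM) were higher at D2, by 0.80, 0.75 and 0.60.

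Monocytes of whole BM held the enzymes at low levels that moved with the background. In naive, D2 and D7 monocytes, Mpo was at 88.2, 18.8 and 105 CPM, Elane at 129, 10.6 and 119 CPM and Prtn3 at 210, 97.4 and 376 CPM. B lineage cells of the same libraries had Mpo at 92.8, 54.5 and 163 CPM, Elane at 106, 6.71 and 191 CPM and Prtn3 at 111, 15.4 and 209 CPM. Mpo was thus not above the background in monocytes in any library, and Prtn3 was above it in all 3. Naive T cells held Mpo at 111, Elane at 141 and Prtn3 at 161 CPM.

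At D2, 3 of 4 members with enough UMIs were at least 1 log2 unit lower in monocytes, against 1.93% of 2381 genes, namely Mpo (−2.23), Elane (−3.61) and Prtn3 (−1.11), and Srgn was higher by 0.85 (397 to 714 CPM). None was at least 1 log2 unit higher, against 4.37% of genes. The ratio of the summed 5 enzymes was −1.88 in monocytes and −1.91 in B lineage cells. Prss57 had 0 UMIs in D2 monocytes and 6 in naive ones. At D7, 1 of 6 was higher, against 0.515% of 3881 genes, namely Serpinb1a (45, 62.2 and 92.7 CPM in naive, D2 and D7 monocytes, a D7 ratio of 1.04, 0.72 to 1.37), with Prtn3 at 0.84. In B lineage cells at D7, 2 of 7 members were higher (Ctsg at 1.07 and Ms4a3 at 1.14), against 0.59% of 6103 genes. Mpo, Elane and Prtn3 were higher there by 0.82, 0.86 and 0.91.

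In MHC class II-rich myeloid cells Mpo, Prtn3 and Ctsg were higher at D7. Mpo was at 123, 123 and 699 CPM in naive, D2 and D7 cells of this class, Prtn3 at 117, 76.3 and 692 CPM and Ctsg at 17.8, 17 and 187 CPM. The D7 ratios were 2.51 (2.24 to 2.79), 2.57 and 3.39, and 3 of 5 members were at least 1 log2 unit higher, against 0.758% of 1714 genes. Elane was at 32.7, 6.78 and 96.8 CPM. Mpo was found in 55 of 119 D7 and 38 of 89 naive cells, and the D7 cell with the most held 15% of its UMIs. The background, at 163 CPM of Mpo at D7, was below these levels.

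Sorted monocytes of CTX-treated mice held more of the enzymes than those of naive mice, and a large part lay in a few cells. In sorted naive and CTX monocytes, Mpo was at 253 and 461 CPM (log2 ratio 0.87), Elane at 394 and 783 CPM (0.99), Prtn3 at 720 and 1175 CPM (0.71) and Ctsg at 196 and 332 CPM (0.76). Ms4a3 (14.9 and 56.2 CPM, 1.91) and Nkg7 (4.94 and 24.2 CPM, 2.30) differed most, and Srgn was lower (465 and 329 CPM, −0.50). Serpinb1a was at 70.6 and 96 CPM (0.44). Prss57 (3.01 and 10 CPM) and Cst7 (8.03 and 16 CPM) had too few UMIs to be counted. In all, 2 of 8 members were at least 1 log2 unit higher, against 0.144% of 5549 genes, and the median was 0.81 against 0.03.

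A sorted cluster of 3 naive and 30 CTX cells stood apart. Its CTX cells had a median of 6.44% of their UMIs in the members, and its naive cells 0.254%. It was led by Cd63, Vcam1, Rgcc and Gfi1 and also by Camp and Ngp. Its CTX cells had Mpo at 9793, Elane at 17417, Prtn3 at 17614, Ms4a3 at 2173 and Nkg7 at 996 CPM. Csf1r, the monocyte growth factor receptor, was at 6.66 CPM in the cluster, the lowest of the 13 sorted clusters. Ly6c2, a gene behind the Ly6C of the sort gate, was at 260 CPM, beside 257 CPM in a cluster led by the neutrophil genes Retnlg and Ltf and 447 to 1307 CPM in the others. It took 1.4% of the sorted CTX UMIs and 70.7% of the Prss57, 57.6% of the Nkg7, 54.3% of the Ms4a3 and 29.8% of the Mpo UMIs of that library.

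Without that cluster, a choice made after seeing the data, 0 of 7 members with enough UMIs were at least 1 log2 unit higher, against 0.126% of 5552 genes. Nkg7 (4.68 and 10.4 CPM) no longer reached 20 CPM and was not counted, though it was still higher by 1.16. The ratios were 0.41 for Mpo, 0.48 for Elane, 0.40 for Prtn3, 0.39 for Ctsg, 0.12 (−0.38 to 0.62) for Prss57, 0.86 for Ms4a3 and −0.78 for Srgn. The 5 enzymes together were at 1565 and 2760 CPM with it and at 1550 and 2074 CPM without it. Of the gain, 58.3% lay in the cluster.

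The other sorted cells with the enzymes were cycling ones. The 5 enzymes summed to 4274 and 6010 CPM in naive and CTX cells of a cluster led by Ung, Cdca7, Hells and Mcm6, genes of DNA replication. They summed to 3965 and 4321 CPM in a cluster led by histone genes, Rrm2 and Tyms, and to 2587 and 2356 CPM in a cluster led by Mxd3 and Nusap1. In the largest cluster, led by Apoe and Socs3, they summed to 123 and 216 CPM, and in the MHC class II-rich cluster to 44.9 and 75.9 CPM. The log2 ratio ranged from −0.49 to 3.44 over the 13 clusters. The highest, in the Retnlg- and Ltf-led cluster (6.73 and 73.1 CPM), rested on 1 naive and 32 CTX UMIs (interval 0.86 to 8.79).

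**Figure D5:**
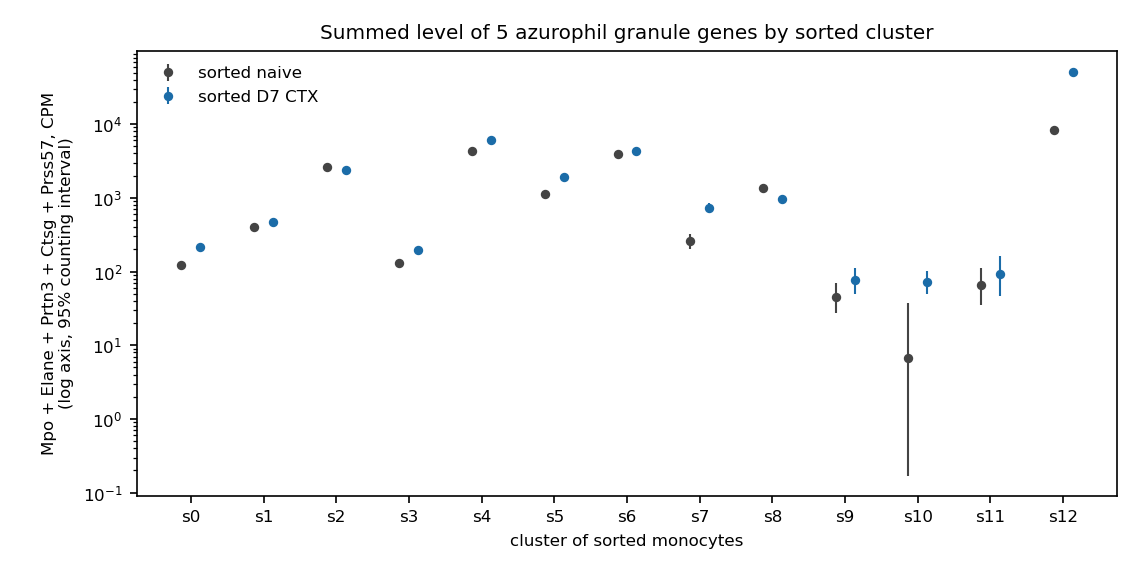
Summed CPM of Mpo, Elane, Prtn3, Ctsg and Prss57 (log axis) in the 13 clusters of sorted monocytes, for naive and CTX libraries. The Cd63-led cluster stands highest in the CTX library, the DNA replication cluster follows at 4274 and 6010 CPM, and most other clusters lie far lower.

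The share of cells that carried at least 3 of Mpo, Elane, Prtn3, Ctsg and Prss57 was compared at a fixed depth. In GMPs thinned to 1000 UMIs it was 92.1% (95% Clopper-Pearson interval 86.8–95.7) in naive, 75.4% (63.1–85.2) in D2 and 94.1% (91.6–96.1) in D7 BM. At this depth Elane was found in 96.3%, 67.7% and 97.7% of GMPs and Mpo in 90.9%, 89.2% and 90.8%. In MDPs the share with at least 3 was 26.9%, 24.7% and 29.3%, and in HSPCs 4.62%, 3.57% and 9.68%.

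In monocytes of whole BM the share was 1.76% (7 of 398 cells) in naive BM, beside 1.87% (38 of 2035) in B lineage cells, so it was at background there. Median depths before thinning were 5573 and 2818 UMIs. At D2 it was 0 of 147 monocytes and 0 of 1745 B lineage cells at this depth, which allows up to 2.04% and 0.172% of cells found with 3 genes at 1000 UMIs. Before thinning 2 of 153 monocytes and 10 of 1774 B lineage cells had at least 3. In sorted monocytes thinned to 2000 UMIs it was 8.57% (7.33–9.95) in naive and 12.7% (11.4–14.0) in CTX mice, and 23.1% and 29.8% before thinning. Without the Cd63-led cluster it was 8.53% and 11.4% (10.1–12.7). In the DNA replication cluster it was 39.3% and 41%, and in the Apoe-led cluster 0.2% and 0.325%.

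Across 49 class and library points, the genes most like a member in log2(CPM + 1), among 11107 genes, were mostly other members. Elane was most like Prtn3 (Pearson r 0.94), Ms4a3 (0.86) and Ctsg (0.85). Mpo was most like Ctsg (0.92), Prtn3 (0.87) and Elane (0.83). Ms4a3 was most like Elane, Ap3s1 (0.80) and Prtn3 (0.79), and Prss57 like Mogat2 (0.74), Prtn3 (0.72) and Tmem53 (0.69). Nkg7 and Cst7 were most like each other (0.76), followed by Stat4 (0.74) and Fam189b (0.74) for Nkg7 and Cmtm7 (0.75) and Ampd2 (0.75) for Cst7. Serpinb1a went with Anxa3 (0.87), Gys1 (0.86) and Ffar2 (0.85), and Srgn with Tbc1d15 (0.67), D16Ertd472e (0.62) and Ifitm1 (0.61). The points share libraries and cell types.

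Other genes of granules and of the secretory pathway were read from lists in GMPs. Of 19 listed enzymes and membrane proteins of granules and lysosomes, 13 had enough UMIs at D2. Of these, 2 were at least 1 log2 unit higher (Ctsd at 1.09, and Gusb), against 12.2% of all 2917 genes. Cd63, a granule membrane protein, was lower (811 to 202 CPM, −2.01). Of 8 endoplasmic reticulum chaperones 1 was higher (Hspa5, 1.17), against the same 12.2%, and their median was 0.94 against 0.31 over all genes. Both counts of higher genes were near the share of all genes. Of 7 specific granule genes with enough UMIs 4 were lower, against 2.61% of all genes, namely Camp (−1.14), Ngp (−1.49), Fcnb (−1.97) and Cd177 (−1.23). Among 7 regulators Irf8 (2.10) and Cbfb were higher, beside 12.2% of all genes. Cebpe, a factor of late granule genes, was lower (−1.09), beside 2.61% of all genes. Irf8, Camp and Fcnb also differed between Cd34-high and Cd34-low cells.

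At D7, when the members were level in GMPs, 5 of 9 specific granule genes were at least 1 log2 unit higher in the same cells. They were Ltf (2.36), Lcn2 (1.40), Chil3 (1.31), Mmp8 (2.38) and Mmp9 (2.72), against 1.13% of all genes, and the list's median was 1.30. Lyz2, lysozyme, was higher by 1.44. The background of these genes was also higher at D7, with Camp at 1737, 889 and 3796 CPM and Ltf at 374, 405 and 631 CPM in naive, D2 and D7 B lineage cells. Ltf in GMPs, at 98.4, 115 and 505 CPM, was below B lineage cells in each library. Camp in GMPs, at 9918, 4514 and 9588 CPM, was above them. In MDPs at D7, 7 of 8 specific granule genes were higher while 0 of 7 members were, against 0.894% of 3690 genes. MDPs held Camp at 1597 and 4581 CPM and Ltf at 118 and 700 CPM in naive and D7 BM. Both were below B lineage cells in naive BM and above them at D7. The part of the background in these values was not tested. In monocytes at D2, 4 of 7 chaperones were higher, against 4.37% of 2381 genes, namely Calr (1.92), Hspa5 (1.44), Pdia6 (1.28) and Hsp90b1 (1.22). In sorted monocytes Ltf (1.03) was the 1 specific granule gene of 8 to be higher, against 0.144% of 5549 genes.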

How the data were processed

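The deposited tables hold UMI counts per gene and cell, made by the authors from 10x 3′ libraries with Cell Ranger 3.1 on mm10 and not normalized. The numbers of cells the study states are larger than the barcodes of the deposited tables. Cells with at least 200 genes and under 20% mitochondrial UMIs were kept, as in the study, which used Seurat 5.0. Here Seurat 5.3.0 clustered whole BM and sorted cells apart, with 2000 variable genes (the 10 members left out), 30 components, RPCA integration and resolution 0.8. Doublets were removed in an alternative only. Clusters were named from markers, so a class may differ from the study's. UMIs were summed per class and library (Python 3.11.15, numpy 2.4.6, scipy 1.17.1, pandas 2.3.3) and given as CPM with exact Poisson 95% intervals. Log2 ratios have exact conditional 95% intervals and shares Clopper-Pearson intervals, all for counting error only. A ratio was counted as higher or lower at 1 log2 unit, with 1 CPM added, for genes that reached 200 UMIs over the libraries being set side by side and 20 CPM in 1 of them or more. Shares were taken after thinning each cell to 1000 UMIs (BM) or 2000 UMIs (sorted), leaving out shallower cells. Named genes were the 10 members, the 3 genes most like each over classes of at least 30 cells, their neighbours, and 7 lists. The scripts were tested on simulated data. The members, lists and motifs were chosen with earlier results of these data known. Promoter windows came from RefSeq, where 8 of the 10 members had one. Alternatives were another cell filter, doublet removal, other clusterings, scalings, a pseudocount of 0.1 CPM, no low-gene filter, another depth and other numbers of genes per cell. A result of the granule enzyme list is not reported here.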

Additional observations from a re-analysis of the deposited data

Results flagged for a closer look

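Several members had log2 ratios of CTX over naive that lay on opposite sides of 0 in different comparisons, each with its 95% counting interval away from 0. None of these differences was tested, since each group was 1 library, and the D2 and D7 comparisons in whole BM share the naive library. In GMPs the D2 and D7 ratios were opposite for Prtn3 (−1.79 and 0.10), Ctsg (−0.94 and 0.20), Srgn (−1.62 and 0.30) and Serpinb1a (−0.82 and 0.36). These signs depended on the cells grouped as GMPs. The Serpinb1a D2 ratio was 0.29 with the members among the variable genes, 0.45 at resolutions 0.4 and 1.2 and 0.61 without integration. The D2 ratios of Prtn3, Ctsg and Srgn stayed below 0 in these clusterings. The D7 ratio of Prtn3 was −0.02 in Cd34-low GMPs. In MDPs the D2 and D7 ratios were opposite for Elane (−1.06 and 0.10) and Prtn3 (−0.41 and 0.30). With the members among the variable genes, the D2 ratio of Prtn3 in MDPs was 0.09. In monocytes of whole BM the D2 and D7 ratios were opposite for Prtn3 (−1.11 and 0.84), Ctsg (−3.51 and 0.40) and Srgn (0.85 and −0.35). In these monocytes Ctsg was within the background of B lineage cells at D2 and D7.

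Between D7 GMPs and sorted monocytes the ratios were opposite for Mpo (−0.06 and 0.87), Elane (−0.21 and 0.99) and Prss57 (−0.21 and 1.74). Without the Cd63-led sorted cluster the sorted ratios were 0.41, 0.48 and 0.12. Srgn was lower in sorted monocytes of CTX-treated mice (−0.50) and higher in MDPs at D7 (0.79).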

How the results depend on the processing

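Over 110 results and 1248 alternative values, of the 22 ratios that were at least 1 log2 unit, 4 turned direction, each without integration: the D2 ratios in GMPs of Prss57 (0.07), Ms4a3 (0.23) and Nkg7 (0.08), and that of Cst7 in MDPs (−0.04). Of 54 smaller ratios, 22 changed sign in at least 1 alternative. The summed ratio of the 5 enzymes in GMPs at D2, −1.46, was −1.38 with a stricter cell filter, −1.50 without doublets, −0.90 with the members among the variable genes, −0.76 at resolution 0.4, −0.75 at 1.2 and also for cells that were GMPs at both resolutions, −0.19 without integration, −1.64 and −1.51 with the 20 most abundant genes or the members out of the total, −1.78 scaled by the median of gene ratios and −1.40 as a mean of cells. It was below 0 in all of these. The count of 6 lower members became 2, 1, 1, 0 and 1 in the variable gene, 0.4, 1.2, no integration and both-resolution settings. Mpo ranged from −0.52 to 0.22 in GMPs at D2, Elane from −2.40 to −0.19, Cst7 from −0.72 to 0.35 and Serpinb1a from −1.13 to 0.61. The D7 ratio in GMPs, −0.04, was −0.12 with the stricter filter and with the members as variable genes, −0.18 and −0.17 at 0.4 and 1.2, −0.17 for both resolutions, −0.21 without integration, 0.05 and 0.13 with the 20 top genes out or median scaling, −0.15 as a mean of cells and −0.05 with the B lineage level subtracted. In whole BM monocytes, the D2 ratio of −1.88 was −2.27 as a mean of cells. The D7 ratio of 0.48 was 0.31 with the members as variable genes and without integration, and −2.46 with the B lineage level subtracted. Prtn3 was the 1 member above background in D7 monocytes, and there were 2 without doublets and 4 without integration. In sorted monocytes 0.82 became 0.78 with the stricter filter, 0.79 with median scaling, 1.03 as a mean of cells, 0.43 without clusters led by neutrophil granule genes and 0.42 without the Cd63-led cluster. The count of 2 higher members was 5 as a mean of cells and 0 in the latter settings. The share of sorted cells with at least 3 of 5 enzymes, 8.57% in naive and 12.7% in CTX, was 5.4% and 8.21% at 1000 UMIs, 13.6% and 18% at 4000 UMIs, 17.7% and 24% for at least 2 genes, 3.93% and 6.66% for at least 4, and 11.4% in CTX without the Cd63-led cluster. The causes were not tested. The alternatives without the Cd63-led cluster, without the pro-B cluster and for both resolutions were chosen after seeing the data. No paired analysis was possible because each group was 1 library, which also left no replicate to leave out.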
